A study of Mus musculus with 5 samples.

Results

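The cells described here were chosen as natural killer (NK) cells of the mouse bone marrow by 7 transcripts in single-cell RNA sequencing. A barcode was kept when it held at least 500 unique molecular identifiers (UMIs, each standing for 1 captured transcript) and at most 10% of them came from mitochondrial genes. It was a member when Klrd1, Klre1, Ncr1 and Gzma gave at least 3 UMIs together and Cd3d, Cd3e and Cd3g gave 0. Of 29679 barcodes within the limits, 581 met the rule (1.96%). A further 369 barcodes had enough UMIs of the 4 genes but held a Cd3 UMI, and 14 were over the mitochondrial limit. The raw UMIs of these 7 genes chose the members, so their levels are given as a description only.

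The study followed pre-B acute lymphoblastic leukaemia in marrow over time. Every mouse was a C57BL/6J animal of 8 weeks that had not been irradiated and had received 1000 BCR-ABL1 pre-B ALL cells into the tail vein. The day 0 mouse was killed straight after the transfer, and 1 mouse each was killed at day 3, 6, 9 and 12, so the day 0 marrow is the only baseline and had also been given leukaemic cells. Flushed marrow and cells freed from crushed femurs and tibias by collagenase and DNase I were pooled and freed of red cells. They were cryopreserved in fetal calf serum with dimethyl sulfoxide, sent frozen for sequencing and run on the 10x Genomics 3′ v2 kit. With 1 mouse per day, a difference between days cannot be told apart from a difference between mice, and no test was made between days. All intervals below are exact 95% intervals that cover counting error only.

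NK cells are innate lymphocytes that kill virus-infected and transformed cells without a rearranged antigen receptor. Whether they kill is set by the balance of activating and inhibitory receptors, among them the lectin-like Klr family and its Ly49 branch (the Klra genes), many of which read MHC class I on the target. They develop in the marrow, where they depend on the receptor for interleukin 15 and on the T-box factors Eomes and T-bet, and they deliver granzymes and perforin from granules.

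The median member held from 2683 UMIs (day 12) to 5499.5 UMIs (day 3), against 3143 to 4397 for all barcodes of a library. Among RNA outside cells, read from barcodes of at most 100 UMIs, 18.6% to 26.6% came from 6 neutrophil genes, while the same genes gave a median of 1.60% to 2.44% in members. Of 29176 distinct barcodes, 494 occurred in more than 1 library. None of the members was a member in 2 libraries by barcode, and 21 member barcodes were also within the limits in another library. Doublets were not called.

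The data went partly against the label. Of the 581 members, 192 (33.0%) reached 3 UMIs through Klrd1 alone (CD94, the partner chain of the NKG2 receptors), with none of Klre1, Ncr1 or Gzma. They made up 27.1% of members at day 0, 56.5% at day 3, 38.8% at day 6, 29.3% at day 9 and 15.9% at day 12. Klrd1 also occurred in other cells of this marrow. Barcodes with at least 5 UMIs of Siglech, Ccr9 and Cox6a2 together and under 5% neutrophil transcripts were taken as plasmacytoid dendritic cells. These cells produce interferon, and the 5 markers listed for them here are Siglech, Ccr9, Tcf4, Bst2 and Cox6a2. Of these barcodes, 59.4% to 69.9% held a Klrd1 UMI, at a median of 4629.5 to 5471 UMIs. In neutrophil barcodes, which should lack the gene, the share was 1.55% to 2.75% at a median of 3197 to 3693 UMIs. Gzma, Klre1 and Ncr1 each occurred in at most 4.05% of the plasmacytoid dendritic barcodes of any day.

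Clustering of the members without the 7 rule genes gave 6 groups. The groups are descriptions, since the genes that define them were clustered. Group 1 held 258 members (44.4%) and was led by Klrb1c, which encodes NK1.1, with Nkg7, Ccl5, Klrk1 and Klra8, and it was called NK-like. Group 2 held 146 members and all 5 plasmacytoid dendritic markers, 132 of its members had Klrd1 alone, and it was called plasmacytoid-dendritic-like. Its size depended on the settings, and the group led by Siglech held 92 members at resolution 0.8 and 93 with 5 components. Group 3 held 65 members led by Crem, Vps37b and Sh2d2a, with Gzma, Ccl5 and Klra8 as well. Group 4 held 46 members led by MHC class II genes and Cd209a, and 35 of these had Klrd1 alone. Group 5 held 36 members led by Hist1h2ap, Ube2c and Top2a, genes of dividing cells, at a median of 10274 UMIs. Group 6 held 30 members in which neutrophil genes gave a median of 27.8% of UMIs. Groups 3 to 6 were left unnamed.

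**Figure D1:**
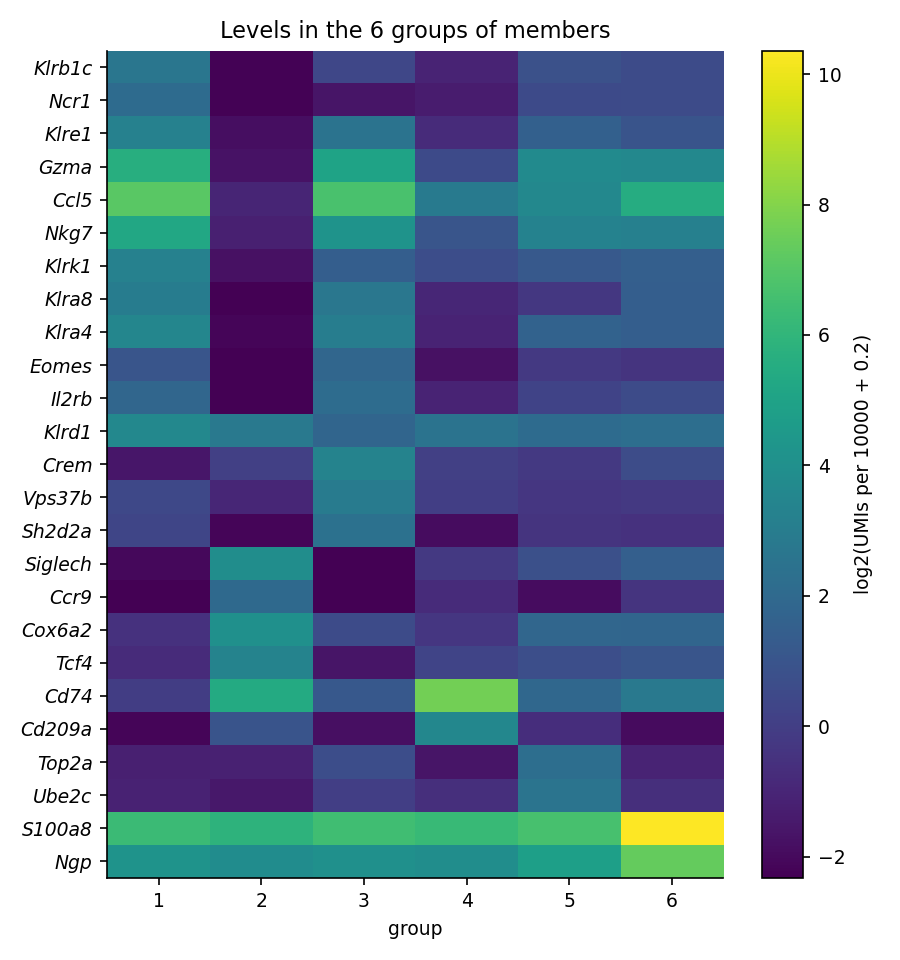
Levels of 25 genes (rows) in the 6 groups of members (columns), as log2 of UMIs per 10000 plus 0.2. Klrb1c, Nkg7 and Klra8 are high in group 1, Siglech and Ccr9 in group 2, Crem in group 3, Cd74 and Cd209a in group 4, and S100a8 and Ngp in group 6.

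At the edge of the rule, barcodes with exactly 3 rule UMIs numbered 22, 29, 33, 29 and 7 from day 0 to day 12, and those with exactly 2 numbered 39, 52, 49, 54 and 18. Klrd1 alone gave those UMIs in 17, 24, 25, 19 and 6 of the barcodes just inside. The level of Siglech, a surface lectin of plasmacytoid dendritic cells, was 4.55 to 13.2 UMIs per 10000 just inside and 1.26 to 8.71 just outside, and that of Klrb1c was at most 0.49 and 0.22.

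**Figure D2:**
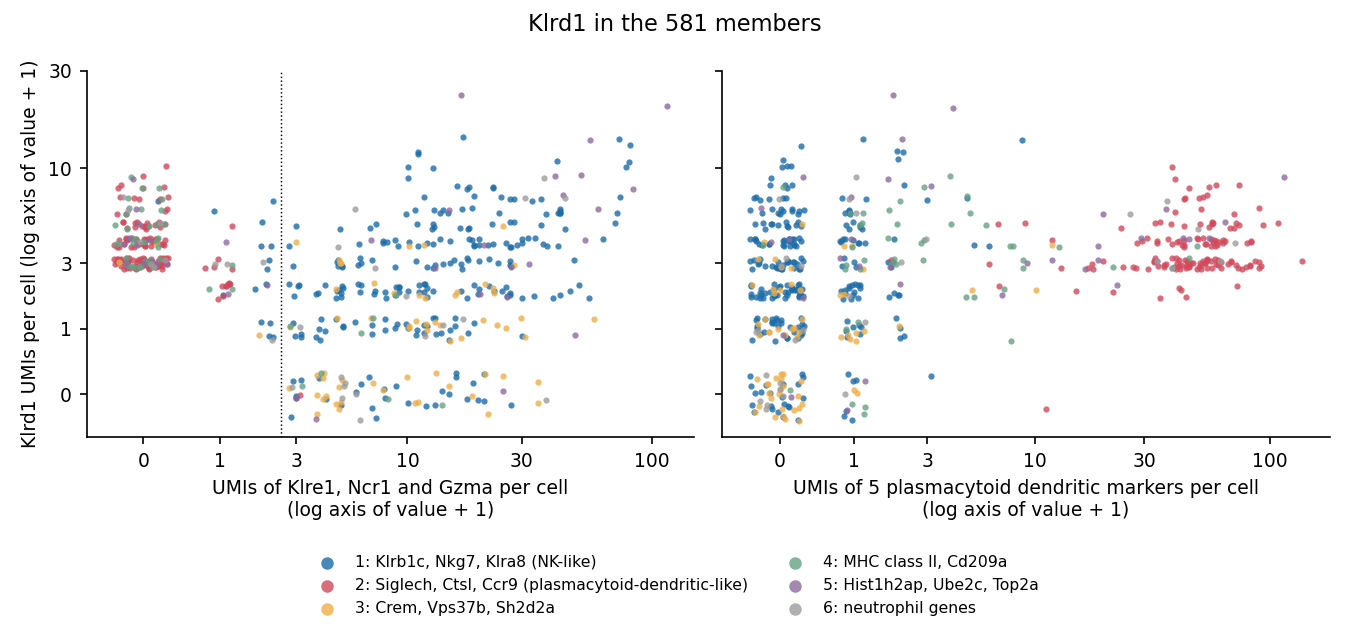
Each point is 1 of the 581 members, placed by its Klrd1 UMIs (vertical) and by its UMIs of Klre1, Ncr1 and Gzma (left) or of 5 plasmacytoid dendritic markers (right), on log axes of the value plus 1 with a small random shift, and coloured by group. The dotted line marks 3 UMIs, and most of the red group 2 lies left of it and at the right of the second panel.

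A narrower rule, chosen after these values were seen, was therefore run beside the given one. It asked for 3 UMIs of Klre1, Ncr1 and Gzma with Klrd1 left out (350 barcodes), then dropped 22 barcodes with over 5% of their UMIs from the 6 neutrophil genes and 1 with over 10% from Igkc, Igha and Jchain. That barcode, from day 9, held 16991 immunoglobulin UMIs among 23985 and reached the rule with 3 UMIs of Gzma. The narrower rule left 327 cells, all of them members, and 267 of these (81.7%) held a Klrd1 UMI. It kept 238 cells of group 1, 61 of group 3, 19 of group 5, 8 of group 4, 1 of group 6 and 0 of group 2. Siglech was at 0 in the narrower set at day 0 and day 12 and gave 1, 2 and 3 UMIs at day 3, 6 and 9. The 5 plasmacytoid dendritic markers together gave 2.01, 4.05, 1.66, 1.39 and 1.35 UMIs per 10000 from day 0 to day 12. Cox6a2, 1 of the 5, gave 57 UMIs at day 3, in 6 of 29 cells with up to 19 in 1 cell, against 11 at day 0, and was 5.77-fold higher.

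NK cells were a small share of the marrow on every day. By the given rule, members made up 2.24% (1.88 to 2.63) of barcodes at day 0, 1.89% (1.53 to 2.31) at day 3, 2.0% (1.66 to 2.39) at day 6, 2.02% (1.70 to 2.37) at day 9 and 1.58% (1.27 to 1.94) at day 12. The day 12 share was 0.66 points below that of day 0 (-1.16 to -0.15). By the narrower rule the shares were 1.49% (93 cells, 1.20 to 1.82), 0.595% (29 cells, 0.399 to 0.854), 0.944% (57 cells, 0.715 to 1.22), 1.14% (79 cells, 0.902 to 1.42) and 1.24% (69 cells, 0.966 to 1.57). Day 3 was then the lowest, with an interval below those of day 0, 9 and 12, and the difference of day 12 from day 0 was -0.25 points (-0.68 to 0.19). When each barcode was thinned to 1000 UMIs before the rule was applied, that difference was -0.11 points (-0.55 to 0.33). The shares are of all barcodes of a library, of which 3058, 2855, 3153, 3905 and 4255 were neutrophil barcodes from day 0 to day 12.

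T cells, taken as barcodes with at least 3 Cd3 UMIs and 0 UMIs of Klrd1, Klre1, Ncr1 and Gzma, made up 3.85%, 1.83%, 2.71%, 2.03% and 1.47% of barcodes. Against the T cells under the same 2 limits on mixed barcodes (228, 71, 144, 118 and 71), NK cells of the narrower rule numbered 0.408 per T cell at day 0 (0.317 to 0.521), 0.408 at day 3 (0.256 to 0.637), 0.396 at day 6 (0.286 to 0.541), 0.669 at day 9 (0.497 to 0.898) and 0.972 at day 12 (0.688 to 1.37). The ratio was alike in the first 3 mice. Its day 12 interval lay above that of day 0.

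**Figure D3:**
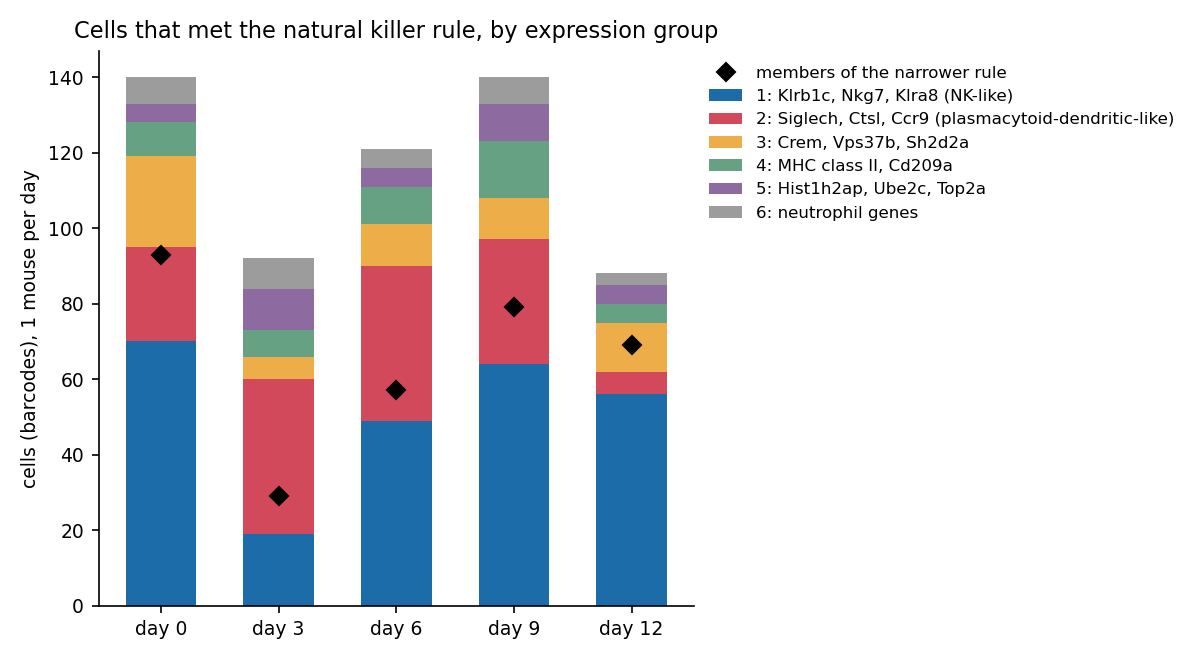
Cells that met the given rule in the 1 mouse of each day, stacked by group (bars, number of barcodes), with the cells of the narrower rule as diamonds. Group 2 takes 41 of 92 members at day 3 and 6 of 88 at day 12, and the diamonds are lowest at day 3 (29 cells).

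What set these cells apart from the T cells of the same marrow was tested within mouse. UMIs were summed per mouse and cell type and compared over the 5 mice with edgeR's quasi-likelihood test, with the mouse as a block and Benjamini-Hochberg adjustment over all genes tested. Both sets were chosen on the 7 rule genes, which were left out of every count. For the given rule, 574 of 4986 genes (11.5%) were higher and 626 (12.6%) were lower at an adjusted p below 0.05. For the narrower rule, 233 of 2614 (8.91%) were higher and 298 (11.4%) were lower.

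In the given rule, genes of 2 cell types led. Klra4 (Ly49d, an activating receptor) gave 4.28, 3.25, 3.90, 4.79 and 5.43 UMIs per 10000 in members from day 0 to day 12 and 0 UMIs in T cells, and was at least 351-fold higher. Siglech gave 3.35, 8.57, 6.54, 3.72 and 1.49 and was higher by 6.26 ± 0.22 on the log2 scale (adjusted p = 1.8e-13). The value after ± here and below is an approximate SE, the log2 difference divided by the square root of the test's F statistic. Cox6a2 was higher by 7.31 ± 0.26, D13Ertd608e at least 145-fold, and Tcf4, the factor that plasmacytoid dendritic cells depend on, by 4.77 ± 0.21. Klra8, Klri2, Klra9, Klrb1a, Cd300c, Cd209d and Kmo completed the 12 largest differences upward. All 5 plasmacytoid dendritic markers passed upward here, with a median of 4.77 against -0.01 over all genes tested. In the narrower rule 1 of the 5 passed the filter on low counts, Bst2, and it was lower by 0.82 ± 0.24 (adjusted p = 0.014).

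The 250 bases before the start are shown for the 4 genes highest in this order that the RefSeq table holds, on GRCm38.p6: Klra4 at chr6:130067272-130067521 (minus strand), Klra8 at chr6:130129899-130130148 (minus strand, 1 of the 2 starts in the table), Siglech at chr7:55767934-55768183 (plus strand) and Cd300c at chr11:114960508-114960757 (minus strand). Capitals mark matches, on either strand, to a T-box motif (AGGTGTGA, in 1.14% of 27025 promoter windows of this length), a RUNX motif (TGTGGT, 14.2%), an ETS motif (GGAAGTG, 8.64%) and an E-box (CACCTG, 17.1%).
Klra4: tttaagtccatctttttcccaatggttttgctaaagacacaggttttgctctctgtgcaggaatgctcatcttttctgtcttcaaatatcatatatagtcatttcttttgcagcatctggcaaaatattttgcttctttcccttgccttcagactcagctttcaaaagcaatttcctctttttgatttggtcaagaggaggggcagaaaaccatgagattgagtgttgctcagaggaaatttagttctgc
Klra8: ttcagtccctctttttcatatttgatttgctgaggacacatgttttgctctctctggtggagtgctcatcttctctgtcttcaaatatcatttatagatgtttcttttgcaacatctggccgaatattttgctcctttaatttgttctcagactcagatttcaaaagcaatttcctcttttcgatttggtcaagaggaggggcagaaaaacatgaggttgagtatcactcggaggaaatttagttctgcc
Siglech: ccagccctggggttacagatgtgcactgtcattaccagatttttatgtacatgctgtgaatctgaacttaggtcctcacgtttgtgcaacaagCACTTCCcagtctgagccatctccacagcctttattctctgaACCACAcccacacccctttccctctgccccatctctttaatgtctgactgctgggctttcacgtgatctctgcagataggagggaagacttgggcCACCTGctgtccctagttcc
Cd300c: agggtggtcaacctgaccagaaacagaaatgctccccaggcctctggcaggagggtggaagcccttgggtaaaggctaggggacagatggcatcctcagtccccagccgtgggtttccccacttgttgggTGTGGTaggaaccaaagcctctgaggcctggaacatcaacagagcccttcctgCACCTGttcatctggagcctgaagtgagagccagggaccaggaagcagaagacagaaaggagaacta
The Klra4 and Klra8 windows were identical at 84.5% of aligned positions and held none of the 4 motifs. The Siglech window held a RUNX and an ETS match on the opposite strand, 115 and 157 bases before the start, and an E-box 20 bases before it. The Cd300c window held a RUNX match 120 bases and an E-box 67 bases before the start.

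Lectin-like receptors are the family of Klrd1 and Klre1, on which the cells were chosen. The T cells held 0 UMIs of both, so the choice of cells itself favoured higher levels of this family in NK cells. Of 24 listed genes 13 passed the filter on low counts, all 13 were higher than in T cells, and their median difference was 4.75 against 0.00 over all genes tested. Several of them had few UMIs in all T cells: Klra4 0, Klri2 1, Klra8 2, Klrb1a 4, Klra9 5, Klra3 6 and Klrb1f 7. Genes this low in T cells passed the filter through the NK sums alone. The counts and adjusted p values of this list are therefore a description. Among the Ly49 genes, Klra4 gave 7.90, 11.4, 9.51, 9.48 and 7.43 UMIs per 10000 from day 0 to day 12 against 0 in T cells, at least 564-fold higher. Klra8 (Ly49h, the activating receptor for a cytomegalovirus protein) gave 7.63, 6.05, 4.93, 5.26 and 7.91 against 2 UMIs in all T cells, a ratio of 592 (163 to 4895). Both had every NK sum above every T cell sum. Klra9 was higher by 6.14 ± 0.35 (adjusted p = 4.2e-12), Klra3 by 4.94 ± 0.38 (8.8e-10), Klra7 by 4.08 ± 0.28 (1.1e-10) and Klra1 by 1.92 ± 0.37 (0.00041). Reads of these near-identical genes can be shared between them, so the level of any 1 of the Klra genes is uncertain.

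Outside the Ly49 branch, Klri2, the partner of Klre1, had a ratio of 498 (88.7 to 19748). Klrb1c gave 4.88, 4.05, 4.16, 4.25 and 5.06 against 0.06 to 0.382 in T cells (4.29 ± 0.25, adjusted p = 7.7e-12). Its relatives Klrb1a and Klrb1f were higher by 5.44 ± 0.47 and 4.75 ± 0.36. Klrk1 (NKG2D, which binds stress-induced ligands) gave 8.85, 6.53, 5.71, 6.86 and 5.87 and was higher by 3.43 ± 0.20. Klrc1 and Klrc2, the inhibitory and activating partners of Klrd1, were higher by 3.57 ± 0.28 and 3.91 ± 0.26. Klrg1, a marker of late NK cells, had 3, 4, 7, 9 and 12 UMIs and was not tested.

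Ly49 genes are known to be expressed in combinations that differ between NK cells. Over the 327 cells of the narrower set, Klra8 had a UMI in 52.3%, Klra7 in 49.8%, Klra4 in 48.3%, Klra9 in 33.3%, Klra3 in 17.7%, Klra1 in 10.4% and Klra6 in 3.98%. Klra5, Klra10 and Klra17 had 1 in at most 1.22%. Of these 10 genes, 38 cells (11.6%) held none, 63 held 1, 98 held 2 and 128 (39.1%) held 3 or more, and the median was 2 in every mouse. Cells with none held a median of 2575 UMIs and cells with 3 or more held 2868.5. A missing UMI does not show that a gene was off, and reads shared between these genes make the number uncertain.

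The signalling adaptors parted into genes higher than in T cells and genes that were not. Of 20 listed activating receptors and adaptors, 14 passed the filter, 7 were higher and 3 lower. Over all genes tested, 8.91% were higher and 11.4% lower. Tyrobp (DAP12, the adaptor of activating Ly49 receptors) gave 33.4, 26.2, 33.7, 30.2 and 33.0 and was higher by 2.34 ± 0.10 (adjusted p = 4.5e-14). Fcer1g, the adaptor of CD16 and NKp46, gave 25.8, 18.3, 23.4, 22.0 and 26.6 and was higher by 2.27 ± 0.11. Hcst (DAP10, the adaptor of NKG2D) gave 9.08, 4.78, 7.01, 7.27 and 10.2, a difference of -0.28 ± 0.11 that did not pass (adjusted p = 0.073). Cd244 (the receptor 2B4), Lat2, Sh2d2a, Fcgr3 (CD16) and Sh2d1a were higher, by 4.13, 2.68, 1.21, 0.80 and 0.62. The T cell receptor signalling genes Zap70 and Cd247 were lower, by -0.93 ± 0.23 and -0.56 ± 0.19, as was the receptor Slamf6 (-1.69 ± 0.26).

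Of 20 listed cytotoxic genes 10 passed the filter, 7 were higher than in T cells and 3 did not pass the threshold. Over all genes tested 8.91% were higher. NK cells were chosen on Gzma and the T cells held 0 UMIs of it. The choice of cells itself thus favoured higher levels of this list in NK cells, and its counts are a description. Gzmb, the granzyme that cleaves caspases, gave 1.69, 0.786, 2.55, 1.36 and 1.67 and was higher by 5.14 ± 0.35 (adjusted p = 1.1e-10). It had 7 UMIs in all T cells and passed the filter through the NK sums. Nkg7, a granule membrane protein, gave 34.8, 27.9, 29.0, 26.4 and 37.9 (1.99 ± 0.10). Serpinb9 and Serpinb6b, inhibitors of granule proteases, were higher by 3.45 ± 0.31 and 3.08 ± 0.24, and the cathepsins Ctsw, Ctsd and Ctsc by 1.41, 0.93 and 0.74. Cma1, a chymase gene outside this list, had 68 UMIs against 1, a ratio of 116 (20.2 to 4666). Srgn, the granule proteoglycan, did not pass (-0.09 ± 0.12, adjusted p = 0.65). Prf1, which encodes perforin, had only 3, 1, 6, 6 and 5 UMIs and was not tested, nor was Ifng, at 31, 5, 12, 14 and 23 UMIs.

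**Figure D4:**
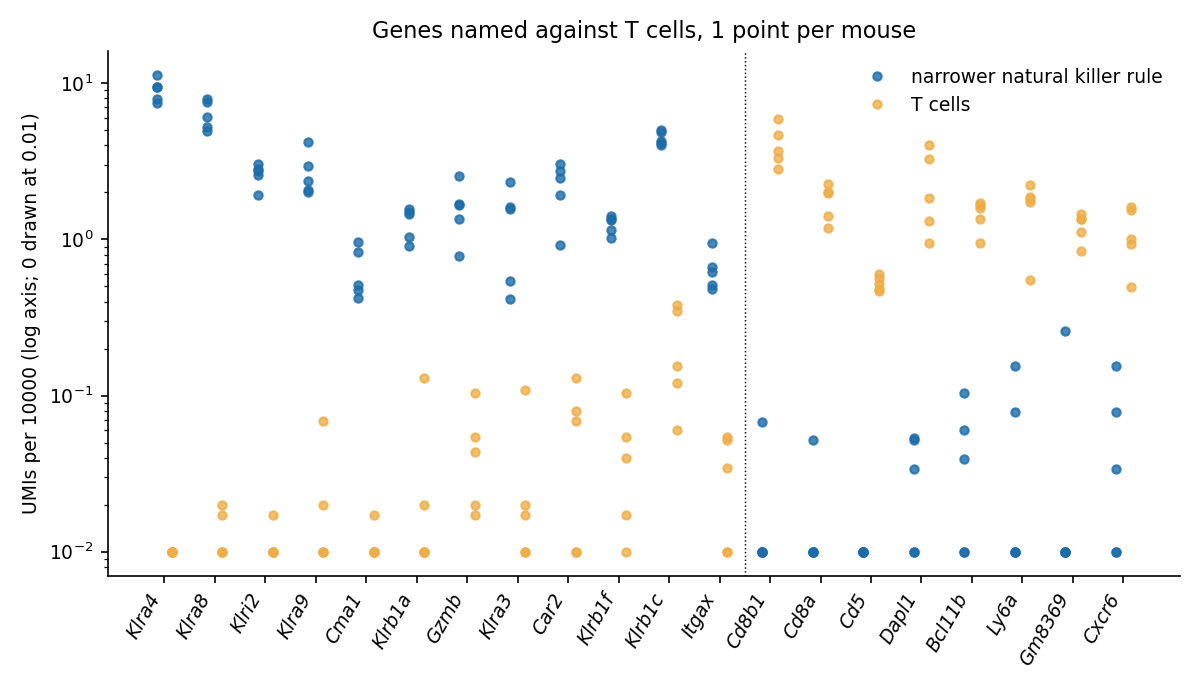
Levels of the 20 genes named for the narrower rule against T cells, in UMIs per 10000 on a log axis, with 1 point per mouse for NK cells (blue) and T cells (yellow) and values of 0 drawn at 0.01. For the 12 genes left of the dotted line every NK point lies above every T cell point, and for the 8 right of it every NK point lies below.

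Of 18 listed transcription factors 13 passed the filter, 6 were higher and 4 lower (8.91% and 11.4% over all genes tested). Eomes gave 2.12, 2.24, 2.91, 1.63 and 1.94 and was higher by 3.41 ± 0.26 (adjusted p = 8.8e-10). Tbx21, which encodes T-bet, was higher by 2.29 ± 0.34, Irf8 by 2.33 ± 0.25, Zeb2 by 1.55 ± 0.26, Id2 by 1.37 ± 0.18 and Runx3 by 0.51 ± 0.17. The T cell factors Bcl11b (-5.32 ± 0.37), Ikzf2 (-2.19 ± 0.21) and Tcf7 (-1.38 ± 0.19) were lower, and so was Ets1 (-0.44 ± 0.14). Gata3, Tox and Klf2 did not pass, at adjusted p of 0.93, 0.27 and 0.13. Bcl11b had 4 UMIs in the NK cells and 277 in the T cells.

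Cytokine receptors followed the same division. Il2rb, the chain that carries interleukin 15 signals, gave 3.34, 3.39, 3.69, 2.79 and 2.58 and was higher by 1.26 ± 0.17. The interleukin 18 receptor chains Il18r1 and Il18rap were higher by 1.45 ± 0.21 and 2.13 ± 0.27, and Jak1 and Ifngr1 by 0.58 and 0.44. Il7r, Il21r and Tgfbr2 were lower, by -3.72 ± 0.34, -1.34 ± 0.25 and -1.05 ± 0.32. Il2rg, the common chain, did not pass (-0.30 ± 0.15, adjusted p = 0.20). In all, 10 of 19 listed genes passed the filter.

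Among chemokines and homing genes, 18 of 22 passed the filter, 11 were higher and 6 lower (8.91% and 11.4% over all genes tested). Ccl5 gave 111, 76.4, 137, 95.6 and 119 and was higher by 1.87 ± 0.15. Ccl4, Ccl3 and Xcl1, chemokines that NK cells release on activation, were higher by 3.91 ± 0.24, 3.15 ± 0.31 and 2.62 ± 0.17. The receptor Ccr2 was higher by 2.15 ± 0.20. Ccr7 and S1pr1, which guide lymphocytes into lymph nodes and out of tissue, were lower, by -3.35 ± 0.44 and -1.82 ± 0.23. Cxcr6, which also marks type 1 innate lymphoid cells, had 6 UMIs against 180 and was lower by 4.34 ± 0.43 on the log2 scale.

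Markers of NK maturation and of related cells were read in the narrower set, where 8.91% of all genes tested were higher than in T cells and 11.4% lower. Of the mature NK list 5 of 10 genes passed the filter and 4 were higher (Gzmb, Cma1, Irf8 and Zeb2). Of the immature list 9 of 10 passed the filter, 3 were higher (Xcl1, Ctla2a and Cd160) and 5 lower (Il7r, Ltb, Tcf7, Thy1 and Cd27). T cells were the reference, so these directions do not show how mature the NK cells were. From day 0 to day 12 the immature list summed to 31.7, 17.2, 22.2, 18.2 and 24.5 UMIs per 10000 in NK cells. The mature list summed to 13.6, 10.5, 14.3, 9.51 and 14.7. Of 8 genes of type 1 innate lymphoid cells, summed at 0.302 to 1.14 UMIs per 10000 in NK cells and 3.78 to 4.79 in T cells, 2 passed the filter and both were lower. The T cell genes Cd8b1 and Cd8a had 2 and 1 UMIs and Cd5 had 0, at least 19.1-fold below T cells. Trbc1, which encodes a constant region of the beta receptor chain of T cells, still gave 3.97, 4.47, 4.62, 2.82 and 4.36 in NK cells, 0.96 ± 0.11 below T cells on the log2 scale (adjusted p = 3.2e-07).

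Other programmes differed from T cells as well, beside 8.91% higher and 11.4% lower over all genes tested in the narrower set. All 15 listed ribosomal protein genes were lower, with a median of -0.49. Of 24 interferon-stimulated genes 8 passed the filter and 6 were lower, among them Ly6a (-5.18 ± 0.41) and Ifi27l2a (-2.86 ± 0.24). In all members Ly6a did not pass (-0.54 ± 0.28, adjusted p = 0.19), and its difference was 0.91 when they were set against Cd8-bearing T cells only. Of 20 cell cycle genes 11 passed the filter and 7 were higher, such as Mki67 (1.35 ± 0.28) and H2afz (0.94 ± 0.09). Of 16 immediate-early genes 14 passed the filter and 5 were higher (Nr4a1, Fosb, Btg2, Jun and Junb), by 0.38 to 0.94. Of the 10 MHC class I genes, with a median of -0.04, Psmb8 (-0.36 ± 0.13, adjusted p = 0.058) and H2-D1 (0.21 ± 0.08, adjusted p = 0.076) came nearest to the threshold without passing. Of 9 neutrophil genes, 5 were lower than in T cells, by at most 0.33 on the log2 scale.

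Between days, levels were compared as ratios of UMIs per 10000 with 0.2 added, over genes with at least 20 UMIs in the pair of libraries. A gene could reach 20 UMIs through 1 day of the pair alone, so counts past 2-fold are a description. Every comparison used the same day 0 mouse. In the given rule 120 of 5394 genes (2.22%) were past 2-fold at day 3, 54 of 5466 (0.988%) at day 6, 56 of 5605 (0.999%) at day 9 and 65 of 4408 (1.47%) at day 12. A few barcodes made several of the largest ratios. At day 9, Igha, Jchain and Igkc had 3505, 2045 and 11655 UMIs in members, of which 3466, 2025 and 11500 lay in the barcode named above. At day 3, Myl10 had 98 UMIs and 88 of them lay in 1 barcode, and the 36 Hspb1 UMIs of day 0 came from 1 barcode. Ly6a was 7.93-fold and D13Ertd608e 4.24-fold higher at day 3 than at day 0, on the day when group 2 held 41 of 92 members. The part of that share in these ratios was not tested.

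In the narrower rule, 40 of 2399 genes (1.67%) were past 2-fold higher and 90 (3.75%) past 2-fold lower at day 3, 30 of 2616 (1.15%) and 51 (1.95%) at day 6, 41 of 3066 (1.34%) and 48 (1.57%) at day 9, and 25 of 2549 (0.981%) and 41 (1.61%) at day 12. Immediate-early genes, the first transcripts that cells make on stimulation, were among the genes lower at day 3. Of 15 such genes tested, 11 were past 2-fold lower at day 3, 3 at day 6, 4 at day 9 and 0 at day 12, with medians of -1.30, -0.57, -0.59 and -0.15 against -0.04, -0.03, -0.04 and -0.01 over all genes tested. At day 6 and day 12, 14 genes were tested. Fos gave 7.39, 1.69, 5.30, 3.40 and 8.13 UMIs per 10000 from day 0 to day 12, Jun 4.05, 0.786, 2.70, 2.62 and 3.34, and Junb 9.20, 3.63, 6.23, 4.35 and 9.42. Day 3 was the lowest for each of these. Cd69, an early activation antigen, gave 1.30, 0.363, 0.623, 0.509 and 1.40.

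The T cells of the same libraries moved alongside. Summed over the 16 listed genes, the level was 59.7, 22.8, 37.2, 34.9 and 56.1 in NK cells and 40.1, 19.4, 28.6, 22.0 and 36.9 in T cells, lowest at day 3 in both. The difference between the cell types across days was not tested.

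**Figure D5:**
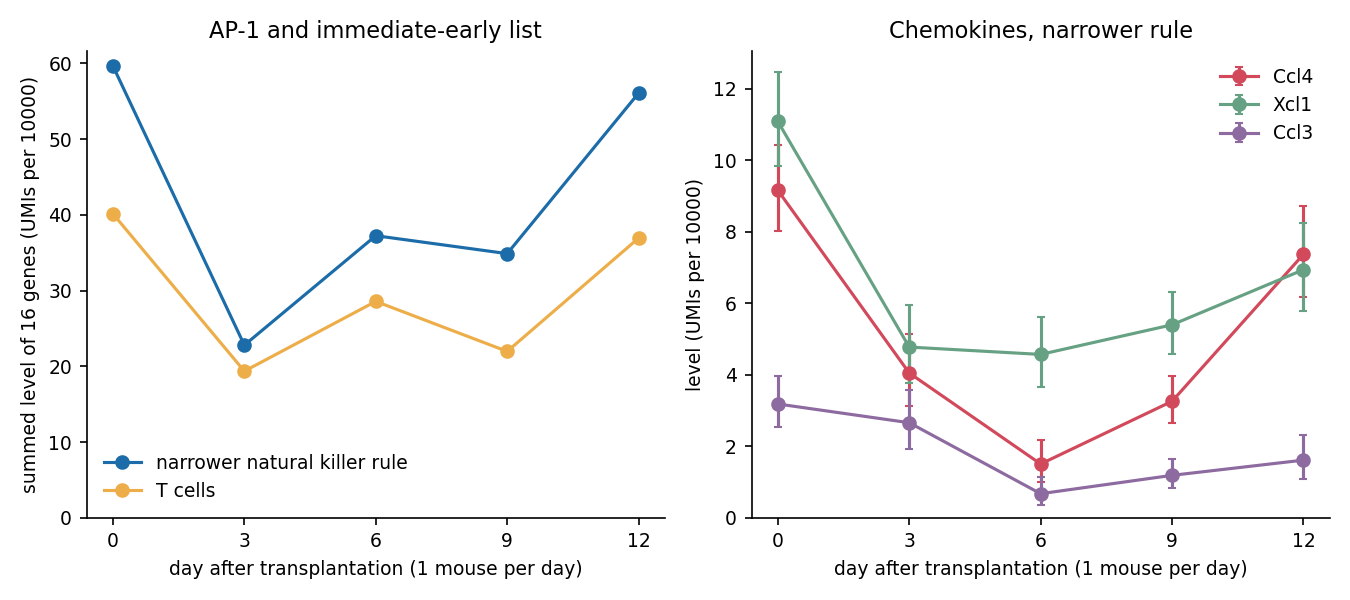
Left, summed level of 16 immediate-early genes in UMIs per 10000 against the day, in NK cells of the narrower rule and in T cells, with 1 mouse per day and no error bars; both are lowest at day 3. Right, levels of Ccl4, Xcl1 and Ccl3 in NK cells of the narrower rule with exact 95% Poisson intervals; the Ccl4 intervals of day 0 and day 12 overlap.

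The chemokine genes of activation differed between mice, with day 6 below day 0 for each of Ccl4, Ccl3 and Xcl1. Ccl4 gave 9.16 (8.02 to 10.4), 4.05 (3.14 to 5.15), 1.51 (1.01 to 2.16), 3.26 (2.64 to 3.98) and 7.37 (6.19 to 8.72) UMIs per 10000, and was 0.18-fold of day 0 at day 6. The intervals of day 0 and day 12 overlapped. Of the 233 Ccl4 UMIs of day 0, 58 lay in 1 cell, and of the 67 of day 3, 37 lay in 1 cell. Without the cell that held most Ccl4 UMIs in each mouse, the levels were 7.02, 1.84, 1.26, 2.75 and 6.02. Ccl3 gave 3.19 (2.53 to 3.96), 2.66 (1.93 to 3.57), 0.675 (0.36 to 1.15), 1.19 (0.83 to 1.65) and 1.61 (1.09 to 2.30), and Xcl1 gave 11.1 (9.83 to 12.5), 4.78 (3.78 to 5.95), 4.57 (3.67 to 5.63), 5.40 (4.59 to 6.31) and 6.94 (5.80 to 8.25). Ccl4 had a UMI in 37 of the 93 day 0 cells and in 18 of the 57 day 6 cells. Ccl5 did not share the pattern and stayed within 2-fold of day 0. Ctla2a, an immature NK marker, was past 2-fold lower at day 3 (-1.40) and day 9 (-1.27). Rgs1, a regulator of G protein signalling, gave 0.48 at day 9 against 2.63 at day 0.

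Genes of dividing cells were higher at day 3, when the narrower set held 29 cells. Past 2-fold higher were 6 of 16 cell cycle genes tested at day 3, 0 of 10 at day 6, 2 of 17 at day 9 and 0 of 11 at day 12. At day 12, 2 were past 2-fold lower (Mki67 and Ube2c). The 6 higher at day 3 were Ccnb2, Cdk1, Ccna2, Ube2c, Stmn1 and 2810417H13Rik. Over all genes tested, 1.67%, 1.15%, 1.34% and 0.981% were past 2-fold higher on these days. A gene low at day 0 could pass the filter through the later day alone, as Ccnb2 did with 24 UMIs at day 3 and 3 at day 0. These counts are therefore a description. Hist1h2ap, a replication histone gene, gave 8.22 (6.90 to 9.73) at day 3 against 0.55 (0.30 to 0.92) at day 0. Its 136 UMIs of day 3 lay in 8 of 29 cells, up to 48 in 1 cell, so these values rest on few cells. Group 5, led by genes of dividing cells, held 5 of the 29 cells at day 3 and 31.6% of their UMIs, and 4 of the 93 cells at day 0 and 14.1% of theirs. Without group 5, chosen after these values were seen, Hist1h2ap gave 5.22 at day 3 and 0.18 at day 0, and the cell cycle genes together 61.1 and 35.9 against 87.5 and 56.3 with it. The immediate-early genes together gave 25.6 at day 3 and 66.7 at day 0 without group 5.

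Among the receptors and effectors of NK cells, single genes were past 2-fold. Of 14 lectin-like genes tested each day, 1 was past 2-fold at day 3 and day 6 (Klra3, lower) and at day 12 (Klra1, higher), and none at day 9. Klra1 gave 1.99 (1.40 to 2.74) at day 12 and 0.63 (0.36 to 1.02) at day 0, in 10 of 69 and 7 of 93 cells. Klra3 gave 1.57, 0.544, 0.416, 2.34 and 1.61. Transcription factors and cytokine receptors had 0 tested genes past 2-fold on any of the 4 later days, and Fcgr3 was the 1 receptor or adaptor past it, lower at day 3 (-1.01) and day 6 (-1.05). Among effectors only Ifng passed 2-fold, lower at day 3 (-1.50) and day 9 (-1.07), from 5 and 14 UMIs.

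Transcripts of other cell types moved with the day in the narrower set. The 8 monocyte genes summed to 35.4, 14.5, 32.3, 35.2 and 15.2 UMIs per 10000 in NK cells, and 3 of the 5 tested were past 2-fold lower at day 3 and at day 12. In T cells they summed to 16.4, 24.6, 23.5, 20.2 and 26.9. S100a4, Lst1, Ms4a6c, Fn1 and Ccl9, which monocytes express strongly, were among the 4 lowest ratios of those days, with S100a4 at 2.24 at day 0, 0.30 at day 3 and 0.38 at day 12. Single cells held much of the day 0 counts. The highest cell held 16 of 57 UMIs of S100a4, 11 of 26 of Lst1, 19 of 35 of Ms4a6c, 12 of 20 of Fn1 and 9 of 23 of Ccl9. Group 4 gave 1, 0, 2, 5 and 0 cells of the narrower set from day 0 to day 12. In all members, S100a4 at day 12 had a log2 ratio of 0.16 instead. The 9 neutrophil genes summed to 177, 173, 219, 215 and 247 in NK cells and 182, 207, 233, 219 and 254 in T cells. The 8 B cell genes summed to 2.75, 2.78, 8.93, 7.40 and 2.69 in NK cells and 4.87, 3.22, 11.3, 6.52 and 2.59 in T cells, highest at day 6 in both. Igkc in NK cells, at 4.0 at day 6 against 0.67 at day 0, lay in 45 of 57 cells at day 6. Cd74 at day 9 and day 12 had 59 of 104 and 30 of 34 UMIs in 1 cell, and Ebf1 at day 9 had 19 of 22. The part of other cells' RNA in these ratios was not tested.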

How the data were processed

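Marrow of 5 mice was measured, 1 library per mouse, and samples were grouped by the day in the labels. The authors deposited raw UMI counts per gene and barcode as sparse matrices made with the Cell Ranger pipeline on mm10. Members, gene lists and comparisons were chosen with earlier results of these data known, and the narrower rule after its values were seen. Counts were read with Python 3.11.15 and scipy 1.17.1, and members were clustered with scanpy 1.11.5 (1000 variable genes, 10 components, 15 neighbours, resolution 0.5). Summed counts of NK and T cells were compared with edgeR 4.0.16 (TMM, filterByExpr, quasi-likelihood test, threshold 0.05), and DESeq2 1.42.0 was an alternative. The test was checked on simulated counts. Levels between days were ratios of UMIs per 10000 with a pseudocount of 0.2. Genes were named as the 12 highest and 8 lowest against T cells that went the same way in all 5 mice, the 4 largest ratios each way per day, and the genes of the lists. Exact Poisson and Clopper-Pearson intervals (95%) cover counting error only, and floors were 3 counts over a group.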

Additional observations from a re-analysis of the deposited data

How the results depend on the processing

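The share of members at day 12 was below day 0 under every alternative run, but some intervals of the difference included 0. The difference was -0.11 points (-0.55 to 0.33) when barcodes were thinned to 1000 UMIs and -0.25 (-0.68 to 0.19) under the narrower rule. It was -0.24 (-0.68 to 0.20) with Klrd1 left out of the rule and -0.35 (-0.80 to 0.11) with at least 5 rule UMIs. Against T cells, 574 genes were higher and 626 lower. The counts were 362 and 390 with DESeq2, 291 and 391 with at least 5 rule UMIs, 124 and 133 after thinning, 232 and 306 with Klrd1 left out of the rule, and 233 and 298 under the narrower rule, and 921 were higher with no filter on low counts. Leaving out each mouse in turn gave 447 to 579 higher and 502 to 609 lower, and within the narrower rule 172 to 229 higher and 240 to 288 lower.

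Counts past 2-fold between days, 120, 54, 56 and 65 for day 3, 6, 9 and 12, depended on the pseudocount and on which barcodes were kept. They were 22, 11, 11 and 2 with a pseudocount of 1, 354, 228, 250 and 266 with 0.05, and 39, 19, 26 and 8 under the narrower rule with at least 50 UMIs. The narrower rule alone gave 89 at day 9. For day 3, thinning gave 64 and the mean over cells 278. For day 6, the counts were 31 with at least 50 UMIs, 83 with at least 5 rule UMIs, 86 with Klrd1 left out, 88 with at most 5% neutrophil transcripts, 100 with mixed barcodes left out, 105 without T cell receptor constant UMIs and 126 as the mean over cells. For day 9 they were 97 with mixed barcodes left out, 102 without receptor constant UMIs and 109 with Klrd1 left out. For day 12 they were 22 with at least 50 UMIs, 40 after thinning, 101 both with at least 5 UMIs and with at least 5 rule UMIs, 133 as the mean over cells, 136 without receptor constant UMIs and 176 with mixed barcodes left out. The cause of these moves was not tested. The group of members led by Siglech held 146 members, and 150 at resolution 0.3, 143 with 20 components, 92 at resolution 0.8 and 93 with 5 components.

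In all members Cd74 had a log2 ratio of -0.27 at day 9 and -0.65 at day 12 and S100a4 one of 0.16 at day 12, each opposite to the narrower rule, and Ly6a reached 0.91 against Cd8-bearing T cells. Of the other results for named genes against T cells, 636 kept their direction and side of the threshold and 11 passed it newly. Of those between days, 461 stayed on their side of 2-fold and 40 crossed it. The narrower set held 29 cells at day 3 and each day was 1 mouse, so neither cells nor days have replicates, and genes with few UMIs, such as Prf1, could not be compared at this depth.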
